A study of Homo sapiens with 6 samples.

Results

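The 39 genes described here code for proteins that take a cell into, through and out of mitosis: CDK1 with its cyclins and activators, the mitotic kinases, the spindle checkpoint, kinetochore and centromere proteins, partners of the anaphase-promoting complex, spindle microtubule proteins, cytokinesis proteins, and 4 factors of dividing cells. They were taken by symbol from a list of names, and that list was chosen with earlier results of these data known. All 39 were found among the 29122 rows of the count table, and all 39 were among the 15907 genes with enough counts to be tested. The lowest count of any of them in any library was 234, for CENPA.

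The cells were A549, a human lung carcinoma epithelial line. Control cells carried a lentiviral hairpin RNA against firefly luciferase, a gene that human cells do not have, and BCLAF1-depleted cells carried a lentiviral hairpin against BCLAF1, a nuclear protein of RNA processing and transcription. By the treatment protocol both groups were stably transduced and carried a hairpin. The titles and source names of depleted samples carry the prefix si, as for a small interfering RNA, and the source names also spell the cell line otherwise; the protocol and the cell line field are followed here. Each group had 3 libraries of polyadenylated RNA from bulk cells. The labels do not say that replicates came from separate cultures, and the p-values then cover only the variation among these libraries, possibly technical. How many hairpin sequences were used, whether cells were a pool or a clone, and how long after transduction they were taken were not given in the sources used here.

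In mitosis, CDK1 bound to a B-type cyclin starts chromosome condensation and spindle assembly. The spindle checkpoint holds the anaphase-promoting complex, a ubiquitin ligase, inactive until every chromosome is attached to microtubules through its kinetochore. The ligase then marks securin and cyclin B for destruction, the sister chromatids part, and a contractile ring divides the cell. Most of these genes are transcribed mainly in the late cell cycle. Their promoters are known for a short element near the transcription start, the cell cycle genes homology region or CHR, and for CCAAT boxes, the sites of the factor NF-Y. The DREAM complex represses such promoters in resting cells, and the MYBL2 and FOXM1 complexes activate them in dividing cells.

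Stretches of 110 bases just before a RefSeq transcription start (GRCh38.p14) are shown for 7 of the genes, because these 2 elements are what many of the promoters share. The CHR was searched as TTTGAA and its reverse complement TTCAAA, and the CCAAT box as CCAAT and its reverse complement ATTGG. Matches may share bases: in MKI67 a CHR and a CCAAT match share an A, and in HMMR and PTTG1 a CCAAT and an ATTGG share letters and count as 2 matches. Capitals mark every match, and each stretch reads 5′ to 3′ on the gene's own strand and ends at the base before the start. The first 5 are genes that fell in BCLAF1-depleted cells and hold a CHR. BUB1 fell and holds no TTTGAA on either strand in its window. CDK1 holds both motifs and did not pass the threshold. They lie at chr15:59105036-59105145 on the plus strand (CCNB2), chr5:138331805-138331914 on the minus strand (CDC25C), chr16:23678779-23678888 on the plus strand (PLK1), chr2:26785946-26786055 on the plus strand (CENPA), chr7:36389752-36389861 on the plus strand (ANLN), chr2:110678064-110678173 on the minus strand (BUB1) and chr10:60778368-60778477 on the plus strand (CDK1).
CCNB2: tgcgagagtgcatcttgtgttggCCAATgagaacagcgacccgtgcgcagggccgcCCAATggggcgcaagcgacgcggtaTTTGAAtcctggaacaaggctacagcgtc
CDC25C: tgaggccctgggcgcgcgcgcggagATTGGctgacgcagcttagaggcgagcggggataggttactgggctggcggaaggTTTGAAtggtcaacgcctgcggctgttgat
PLK1: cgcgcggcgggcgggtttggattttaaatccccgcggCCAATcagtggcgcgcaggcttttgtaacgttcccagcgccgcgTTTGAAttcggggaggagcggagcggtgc
CENPA: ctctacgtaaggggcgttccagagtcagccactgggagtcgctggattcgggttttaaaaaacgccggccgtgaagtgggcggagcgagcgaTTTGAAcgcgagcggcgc
ANLN: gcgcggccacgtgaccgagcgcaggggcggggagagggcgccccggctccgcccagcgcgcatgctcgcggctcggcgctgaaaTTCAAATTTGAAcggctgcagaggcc
BUB1: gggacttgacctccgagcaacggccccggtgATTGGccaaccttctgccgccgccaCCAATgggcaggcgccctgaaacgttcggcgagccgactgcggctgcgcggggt
CDK1: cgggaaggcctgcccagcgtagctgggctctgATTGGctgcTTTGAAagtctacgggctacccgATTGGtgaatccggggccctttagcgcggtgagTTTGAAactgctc

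RefSeq promoter windows, from 250 bases before to 50 bases after a start, were on hand for 33 of the 39 genes, with 43 windows because some genes have several starts. AURKA, TPX2, FOXM1, UBE2C, TTK and BIRC5 had no window here. A CHR match was in 27 of the 43 windows (62.8%), against 15.2% of all 35116 windows and 10.6% of the 15177 windows of tested genes. A CCAAT match was in 32 windows (74.4%), against 34.6% of all windows and 34.4% of those of tested genes. Both motifs were in 51.2% of these windows and in 5.9% of all windows. A match to letters is a description of sequence and not a bound site. Windows of different starts of CDK1, CDC25C, AURKB, PTTG1 and ECT2 share bases, so their matches are not independent.

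The CHR matches clustered close to the start. In 22 of the 43 windows (51.2%) a match lay within 50 bases of it, against 4.75% of all windows. In CCNB2 and PLK1 the first base of the match was 29 bases before the start, in CDC25C 30, and in CENPA 18. ANLN held a match on each strand side by side, at 26 and 20 bases before the start. The checkpoint gene BUB1B held a match 23 bases before the start, and the cytokinesis gene PRC1 at 20. Among genes that did not pass the threshold, CKS1B held a match 30 bases before the start and CKS2 at 29. As a description, a match within 50 bases of the start was in 69.6% of the windows of genes that fell and in 30.0% of those of the others. These are shares of windows and not of genes. CDC25B adds several windows without a match to the others, and 1 CDC25C match is counted in more than 1 window.

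**Figure D1:**
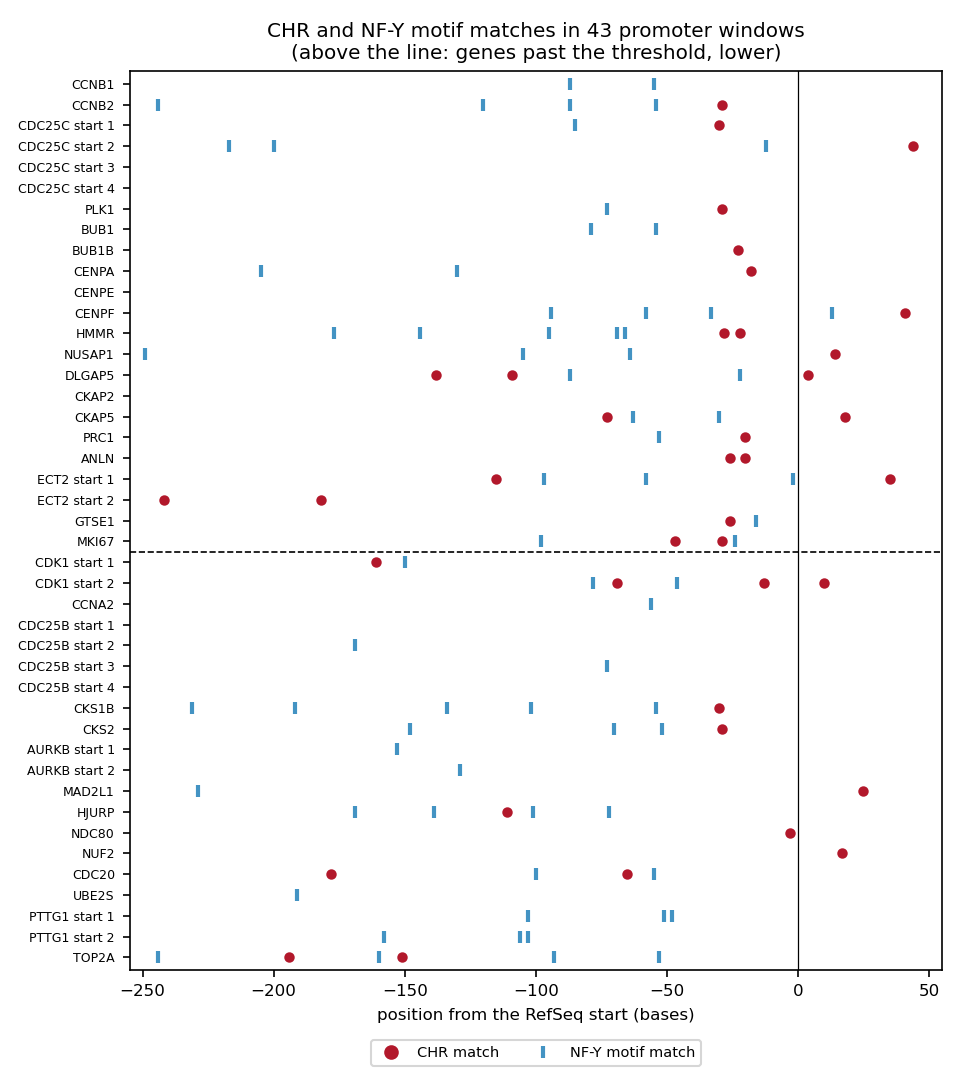
Positions of CHR matches (red dots) and NF-Y motif matches, the CCAAT box (blue bars), along 43 promoter windows, in bases from the RefSeq start at 0. Each row is a window, with genes that fell above the dashed line. Red dots gather in the 50 bases either side of the start in 22 windows, on both sides of the line.

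Total counts ran from 33409158 to 43928927 per library. Of all 15907 tested genes, 2870 were lower (18.0%) and 2827 higher (17.8%) in depleted cells in edgeR's quasi-likelihood test, with a Benjamini-Hochberg adjusted p under 0.05. With library totals in place of TMM scaling, the shares were 23.0% lower and 8.07% higher, and the median log2 fold change of all genes moved from 0.02 to -0.21. BCLAF1 itself stood at 211.1, 199.0 and 203.2 CPM (counts relative to the size of the library, scaled by TMM) in the controls and at 39, 35.7 and 53.1 in the depleted libraries, a log2 fold change of -2.26 ± 0.16 (SE, adjusted p = 2.31e-05). Mitochondrial transcripts took 10.7% to 11.1% of control counts and 11.4%, 10.5% and 19.3% in depleted replicates 1, 2 and 3. Ribosomal protein genes took 6.61% to 6.8% in controls and 8.44%, 11.3% and 8.92% in depleted libraries; the part of these shifts in the results on the 39 genes was not tested. The epithelial keratin genes KRT8 and KRT18 stood between 14400 and 20700 CPM in all libraries, while KRT19 was under 1 CPM. CDKN2A, which A549 cells have lost, was listed at 0 in 5 libraries and at 0.0208 CPM in the other. Of the other genes listed as deleted in A549, CDKN2B had no row in the table. MTAP went the other way and was found in every library, between 3.82 and 7.89 CPM. The 4 alveolar markers with a row in the table summed to at most 0.381 CPM, and the leukocyte, endothelial and fibroblast lists to at most 0.616, 2.68 and 22.0 CPM.

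Of the 39 mitotic genes, 23 fell in BCLAF1-depleted cells, where 18.0% of all tested genes fell, and 16 did not pass. None rose in edgeR's test, where 17.8% of all tested genes did. None with a positive fold change had an unadjusted p under 0.05, and none rose in DESeq2 or limma-voom. The median log2 fold change was -0.57, against 0.02 over all tested genes. In 26 of the 39, every depleted library was below every control library, a separation that 26.6% of all tested genes showed. The fall was at least 2-fold in 6 of them: ANLN, BUB1, DLGAP5, ECT2, BUB1B and CENPA. Over all tested genes, 5.14% fell at least 2-fold. On GRCh38, in GENCODE 29, ANLN lies at chr7:36389806-36453791, ECT2 at chr3:172750682-172821474 and BUB1B at chr15:40161023-40221136. BUB1 at chr2:110637698-110678114 and CENPA at chr2:26764289-26801067 share a chromosome but are far apart, and DLGAP5 lies at chr14:55148112-55191678. Counts were per gene and do not tell transcripts apart. Summed over the 39 genes, the level was 6897, 6609 and 6437 CPM in controls and 4901, 4587 and 5270 CPM in depleted libraries, with no overlap. The deposited FPKM values carry no TMM scaling. Their sums were 1686, 1646 and 1651 in controls and 1209, 1022 and 961.1 in depleted libraries. Depleted replicate 3 was thus the highest depleted library in CPM and the lowest in FPKM. In bulk RNA, fewer cells in mitosis and less RNA per cell cannot be told apart. Fold changes, SE and adjusted p-values below come from this fit over all tested genes, with 3 libraries a group.

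**Figure D2:**
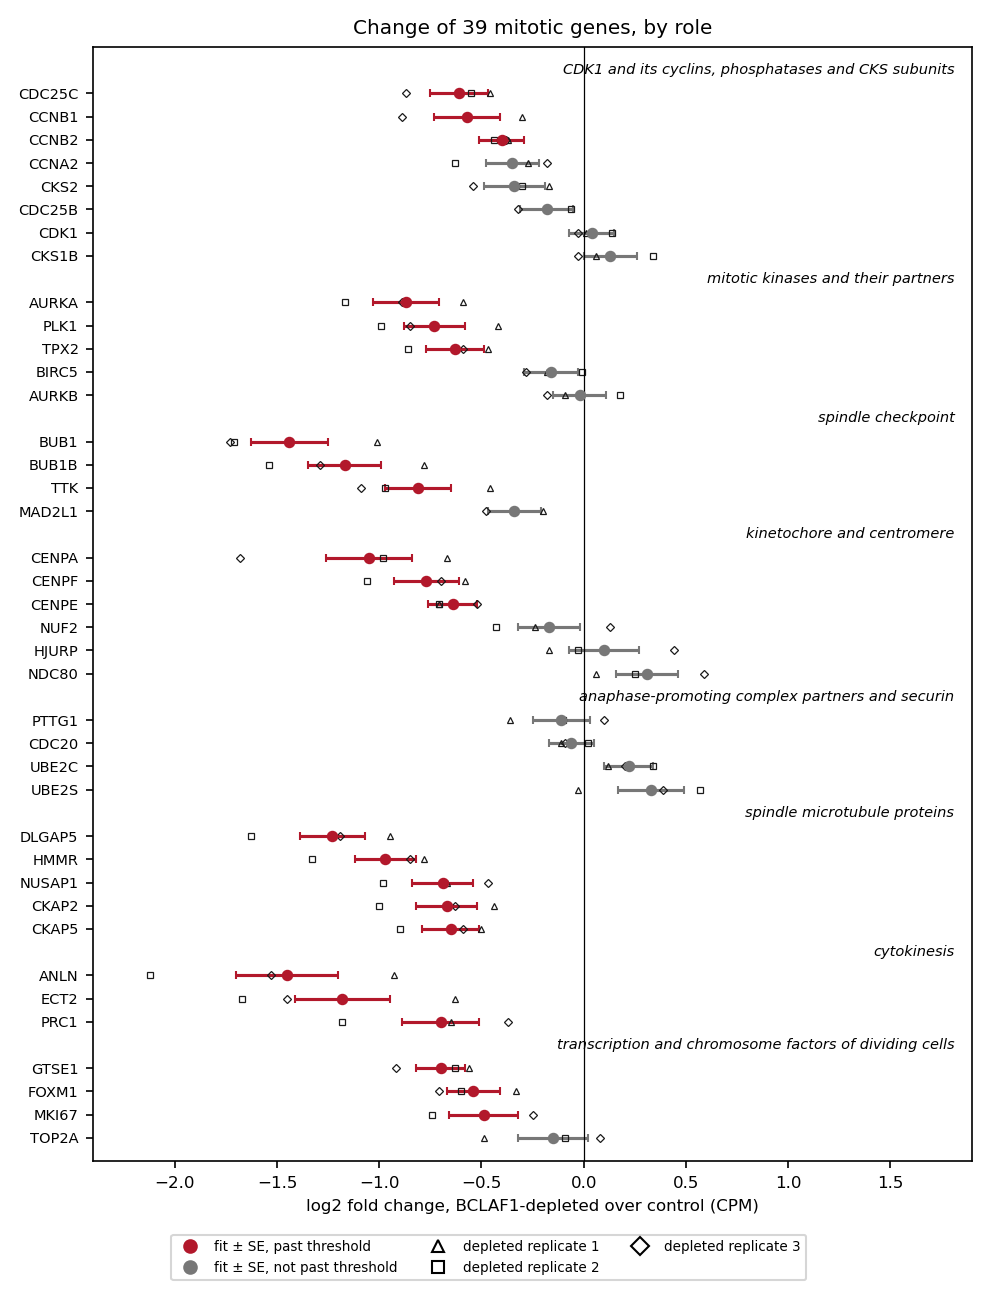
Log2 fold change (BCLAF1-depleted over control, CPM) of the 39 mitotic genes, grouped by role. Filled circles with bars are the fitted value ± SE, red for the 23 past the threshold and grey for the 16 not past it, and open symbols are each depleted library against the control mean. Spindle microtubule and cytokinesis genes all lie left of 0, and the genes of anaphase-promoting complex partners and securin lie around it.

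Among CDK1 and its cyclins, phosphatases and small subunits, 3 of 8 genes fell and the median was -0.34. CDK1, the kinase that drives mitotic entry, stood at 47.4, 48.0 and 53.7 CPM in controls and at 49.9, 54.7 and 48.5 CPM in depleted cells. The groups overlapped, and the log2 fold change of 0.04 ± 0.11 had a 95% interval from -0.22 to 0.29. CCNB1, the cyclin B1 gene, went from 156.5, 156.4 and 132.1 CPM to 120.3, 99.3 and 80.1 CPM (-0.57 ± 0.16, adjusted p = 0.0212). CCNB2, which codes for the other B-type cyclin of mitosis, was tighter. It was at 89.9, 93.7 and 96.2 CPM in controls and at 72.0, 68.6 and 71.6 CPM in depleted cells (-0.40 ± 0.11, adjusted p = 0.0191). In CPM the kinase gene thus overlapped between groups, where the genes of both its B-type cyclins lay below every control in each depleted library. In the deposited FPKM values, which divide by gene length and library size without TMM scaling, CDK1 did not overlap. CDK1 was at 22.4, 22.6 and 25.6 FPKM in controls and at 22.2, 20.9 and 16.4 FPKM in depleted cells, without passing in any FPKM fit. CCNB1 did not pass without control replicate 1 (adjusted p = 0.0851), control replicate 2 (0.0859) or depleted replicate 2 (0.0612), and CCNB2 did not pass without control replicate 1, 2 or 3 (0.0747, 0.0925 and 0.0816).

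CDC25C, a phosphatase gene whose product activates CDK1, fell from 19.4, 21.2 and 20 CPM to 14.7, 13.8 and 11 CPM (-0.61 ± 0.14, adjusted p = 0.00831). Its relative CDC25B was at 392.8 to 423.2 CPM in controls and 331.1 to 396.7 CPM in depleted cells, and the groups overlapped (-0.18 ± 0.13, adjusted p = 0.311). CCNA2, the gene of cyclin A2, was at 62.4, 65.1 and 62.4 CPM in controls and at 52.6, 41.0 and 55.8 CPM in depleted cells. Every depleted library lay below the controls, yet the change of -0.35 ± 0.13 did not pass (adjusted p = 0.0679). It passed without depleted replicate 1 (adjusted p = 0.0291) or without depleted replicate 3 (0.0356). CKS2, a small subunit of CDK complexes, was likewise below the controls in each depleted library without passing (-0.34 ± 0.15, adjusted p = 0.097), and passed without depleted replicate 1 (0.0378). Its close relative CKS1B stood at 0.13 ± 0.13 (adjusted p = 0.434). GENCODE lists 6 pseudogenes of CKS1B, with which reads could be shared. Exons of CDC25C and CCNA2 overlap exons of FAM53C and EXOSC9 on the opposite strand by 293 and 254 bases; the libraries were directional, but the strand setting of the counting was not given in the sources used here.

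Of the mitotic kinases and their partners, 3 of 5 genes fell (median -0.63). AURKA, the Aurora kinase of centrosomes and spindle poles, went from 96.4, 99.1 and 119.6 CPM to 69.3, 46.5 and 56.6 CPM (-0.87 ± 0.16, adjusted p = 0.00373). TPX2, the spindle protein that binds and activates AURKA, fell from 321.7, 309.2 and 285.1 CPM to 220.6, 168.4 and 203.0 CPM (-0.63 ± 0.14, adjusted p = 0.00855). Without control replicate 1, TPX2 missed the threshold (adjusted p = 0.0515). PLK1, the Polo kinase that acts at centrosomes, kinetochores and the cleavage site, was at 114.4, 117.1 and 113.3 CPM in controls. In depleted cells PLK1 was at 86.0, 57.8 and 63.9 CPM (-0.73 ± 0.15, adjusted p = 0.00635). The Aurora kinase of the chromosomal passenger complex, AURKB, did not pass: 94.5, 85.8 and 90.0 CPM in controls against 84.3, 102.3 and 79.5 CPM (-0.02 ± 0.13, 95% interval -0.31 to 0.27). BIRC5, or survivin, which works in the same complex as AURKB, was at -0.16 ± 0.13 (adjusted p = 0.369), with overlapping groups. Exons of PLK1 overlap exons on the opposite strand by 595 bases, and GENCODE lists 2 pseudogenes of AURKA.

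Of the spindle checkpoint genes 3 of 4 fell, and the median was -0.99. BUB1, a kinase that recruits checkpoint proteins to kinetochores, went from 49.6, 48.4 and 53.1 CPM to 25.0, 15.4 and 15.2 CPM. That left 36.8% of the control mean (-1.44 ± 0.19, adjusted p = 0.000596). BUB1B, which codes for the checkpoint protein BubR1, fell from 72.3, 69.0 and 68.9 CPM to 40.9, 24.1 and 28.6 CPM (-1.17 ± 0.18, adjusted p = 0.00145). TTK, the kinase also called MPS1 that starts checkpoint signalling, was at 28.0, 27.6 and 25.6 CPM in controls and at 19.7, 13.8 and 12.7 CPM in depleted cells (-0.81 ± 0.16, adjusted p = 0.0054). In all 3, depleted replicate 1 was the highest of the depleted libraries and still lay below every control. MAD2L1, whose product MAD2 binds CDC20 directly, did not pass: 44.6, 42.5 and 35.6 CPM against 35.4, 32.2 and 29.2 CPM (-0.34 ± 0.13, adjusted p = 0.0645). It passed without depleted replicate 1 (adjusted p = 0.0203). BUB1B shares 457 exonic bases with the read-through gene BUB1B-PAK6 on its strand, so reads there are uncertain between them.

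At the kinetochore and centromere, 3 of 6 genes fell (median -0.40). CENPA, the histone H3 variant that marks the centromere, went from 23.3, 25.0 and 21.0 CPM to 14.5, 11.6 and 7.21 CPM (-1.05 ± 0.21, adjusted p = 0.00549). HJURP, the chaperone that loads CENPA, was at 227.9, 225.9 and 224.3 CPM in controls and at 201.2, 220.8 and 307.3 CPM in depleted cells (0.10 ± 0.17, adjusted p = 0.649). In CPM, depleted replicate 3 was at once the lowest of the 6 libraries for CENPA and the highest for HJURP. In FPKM its HJURP level of 66.6 lay below every control (68.1 to 68.8), so the HJURP part depends on the scaling. CENPF, a large kinetochore and nuclear envelope protein of late cell cycle, fell from 565.0, 491.4 and 476.9 CPM to 340.8, 244.8 and 313.9 CPM (-0.77 ± 0.16, adjusted p = 0.00599). CENPE, the kinetochore kinesin that carries chromosomes to the spindle middle, fell from 64.2, 57.1 and 63.3 CPM to 37.5, 37.7 and 43 CPM (-0.64 ± 0.12, adjusted p = 0.00336). The genes of the microtubule-binding NDC80 complex did not pass. NDC80 was at 25.4, 22.9 and 24.6 CPM in controls and at 25.3, 28.9 and 36.5 CPM in depleted cells (0.31 ± 0.15, adjusted p = 0.116). It passed as higher without depleted replicate 1 (adjusted p = 0.0203). In FPKM the NDC80 mean was 10.8 in controls and 10.8 in depleted cells, so the rise depends on the scaling. NUF2, its partner subunit, was at -0.17 ± 0.15 (adjusted p = 0.411). CENPA and SLC35F6 share 138 exonic bases on 1 strand.

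None of the 4 genes around the anaphase-promoting complex passed in edgeR's test or had an unadjusted p under 0.05, and none passed in DESeq2 or limma-voom. Their median was 0.08. CDC20, the activator that the checkpoint holds back, stood at 48.0, 51.4 and 44.5 CPM in controls and at 44.4, 48.5 and 45.0 CPM in depleted cells (-0.06 ± 0.11, 95% interval -0.31 to 0.19). UBE2C, the ubiquitin-conjugating enzyme that starts chains for the complex, was at 26.0, 25.1 and 22.5 CPM against 26.7, 31.0 and 28.2 CPM. In CPM, UBE2C was the only one of the 39 genes with every depleted library above every control, without passing (0.22 ± 0.12, adjusted p = 0.169). In FPKM, UBE2C was at 19.5, 18.8 and 17.0 in controls and at 18.8, 18.8 and 15.1 in depleted cells. The groups overlapped there, so the separation depends on the scaling. UBE2S, the enzyme that extends those chains, was at 202.5, 195.9 and 202.1 CPM in controls and at 196.2, 298.1 and 263.0 CPM in depleted cells (0.33 ± 0.16, adjusted p = 0.127). In CPM, depleted replicate 1 lay with the controls, and without it UBE2S passed as higher (adjusted p = 0.0069). In FPKM, UBE2S was at 76.5, 73.9 and 77.1 in controls and at 69.7, 91.3 and 71.3 in depleted cells. Only depleted replicate 2 lay above the controls there, so the rise depends on the scaling. With the trend over exon length and GC content removed, the change of UBE2S was 0.10 (adjusted p = 0.588). PTTG1, the gene of securin, was very even in controls at 97.3, 97.5 and 97.0 CPM and spread from 75.6 to 104.3 CPM in depleted cells (-0.11 ± 0.14, adjusted p = 0.554). In FPKM, PTTG1 was at 81.4, 81.4 and 82.0 in controls and at 59.5, 61.4 and 62.6 in depleted cells. Each FPKM fit called it lower, where 28.0%, 27.5% and 7.12% of all genes were. GENCODE lists 4 pseudogenes of UBE2C and 2 of UBE2S.

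All 5 spindle microtubule genes fell (median -0.69), with every depleted library below every control. DLGAP5, which codes for the microtubule-binding protein HURP, went from 83.6, 76.8 and 79.7 CPM to 41.5, 25.8 and 34.9 CPM (-1.23 ± 0.16, adjusted p = 0.000707). HMMR, a spindle and hyaluronan-binding protein also called RHAMM, fell from 102.3, 94.9 and 100 CPM to 57.7, 39.5 and 54.9 CPM (-0.97 ± 0.15, adjusted p = 0.00166). NUSAP1, a microtubule-bundling protein of the central spindle, fell from 137.2, 137.3 and 126.6 CPM to 84.2, 67.8 and 96.4 CPM (-0.69 ± 0.15, adjusted p = 0.00622). In each of these 3 genes depleted replicate 2 was the lowest library. CKAP2, a cytoskeleton-associated protein of the spindle, was at 61.7 to 73.5 CPM in controls and at 33.3 to 49.1 CPM in depleted cells (-0.67 ± 0.15, adjusted p = 0.00888). CKAP5, the microtubule polymerase ch-TOG, was at 211.1 to 220.6 CPM against 115.4 to 151.7 CPM (-0.65 ± 0.14, adjusted p = 0.00619). Of NUSAP1, 1787 exonic bases are shared with a neighbour model on its strand, and exons of HMMR overlap HMMR-AS1 on the other strand by 113 bases.

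All 3 cytokinesis genes fell, and their median of -1.18 was the lowest of the 8 roles. ANLN, the anillin scaffold of the contractile ring, went from 215.5, 199.9 and 203.6 CPM to 108.1, 47.5 and 71.2 CPM. It kept 36.6% of the control mean (-1.45 ± 0.25, adjusted p = 0.00243). Its depleted libraries spread widely, with a coefficient of variation of 40.4% against 3.96% in controls. ECT2, the exchange factor that activates RhoA at the cleavage site, fell from 180.1, 169.5 and 175.0 CPM to 113.0, 54.9 and 64.1 CPM (-1.18 ± 0.23, adjusted p = 0.00493). PRC1, which bundles the antiparallel microtubules of the central spindle, fell from 367.5, 365.1 and 362.1 CPM to 232.2, 161.0 and 282.2 CPM (-0.70 ± 0.19, adjusted p = 0.0184). The order of the depleted libraries was not the same: depleted replicate 1 was the highest for ANLN and ECT2, and depleted replicate 3 for PRC1. PRC1 did not pass without control replicate 1 (adjusted p = 0.0614), control replicate 2 (0.0609) or control replicate 3 (0.0603). Exons of PRC1 overlap PRC1-AS1 on the opposite strand by 406 bases and another gene model on its own strand by 3181 bases.

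**Figure D3:**
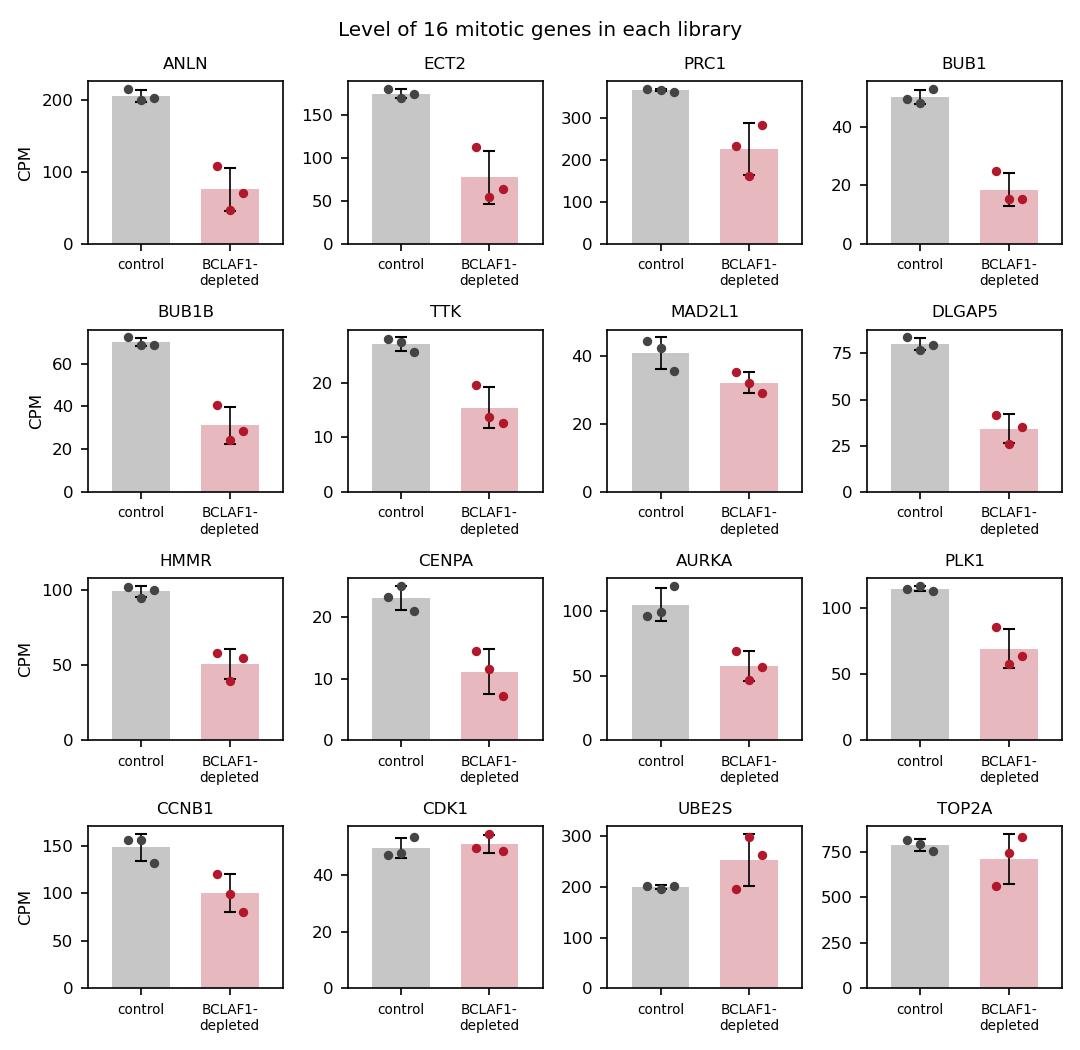
CPM of 16 of the mitotic genes in each library, with points for the 3 control (grey) and 3 BCLAF1-depleted (red) libraries, and bars for the mean ± SD, all from 0. In ANLN, ECT2, BUB1, BUB1B, DLGAP5 and CENPA every depleted point lies well below every control point, while CDK1 and TOP2A overlap and UBE2S has 1 depleted point level with the controls.

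Of the 4 transcription and chromosome factors of dividing cells, 3 fell (median -0.51). FOXM1, a transcription factor of late cell cycle genes, went from 92.7, 91.8 and 84.1 CPM to 71.2, 59.2 and 54.8 CPM (-0.54 ± 0.13, adjusted p = 0.0117). It did not pass without control replicate 1 (adjusted p = 0.0601) or control replicate 2 (0.0585), and 781 of its exonic bases overlap ITFG2 on the opposite strand. GTSE1, a microtubule-bound protein expressed in S and G2 phase, fell from 39.5, 39.5 and 39.9 CPM to 26.8, 25.6 and 21.0 CPM (-0.70 ± 0.12, adjusted p = 0.00316). MKI67, whose product Ki-67 coats mitotic chromosomes and marks dividing cells, went from 1338.9, 1237.6 and 1162.4 CPM to 883.3, 743.8 and 1043.3 CPM. Its change was near the threshold (-0.49 ± 0.17, adjusted p = 0.0444), and the call was lost without each of the 3 controls in turn (adjusted p = 0.178, 0.136 and 0.0958) or depleted replicate 2 (0.0969). TOP2A, the topoisomerase that untangles sister chromatids, was at 816.4, 789.2 and 754.7 CPM in controls and at 559.9, 740.8 and 828.7 CPM in depleted cells (-0.15 ± 0.17, adjusted p = 0.515). In CPM, depleted replicate 3 held the highest TOP2A level of all 6 libraries, and depleted replicate 1 the lowest. In FPKM every depleted library (88.0 to 100.4) lay below every control (127.5 to 136.4), and each FPKM fit called TOP2A lower.

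The depleted libraries were not alike. Against the control mean, the median over the 39 genes was -0.44 in depleted replicate 1, -0.63 in depleted replicate 2 and -0.52 in depleted replicate 3, where the medians over all genes were 0.01, 0.003 and -0.01. In CPM, depleted replicate 1 held the highest depleted level for 21 of the 39 genes, a count without a share over all genes. The lowest level was in depleted replicates 1, 2 and 3 for 8, 17 and 14 genes. Over all tested genes these libraries were lowest for 35.3%, 32.8% and 31.9%. Leaving out depleted replicate 1, 26 genes fell and 2 rose, NDC80 and UBE2S, where 25.8% of all tested genes fell and 23.0% rose. Leaving out depleted replicate 3, the library with 19.3% mitochondrial counts, 24 fell and none rose. The shares of all tested genes in that fit were 15.2% lower and 15.6% higher. In CPM, depleted replicate 2, with the lowest median over the 39 genes, also held the least BCLAF1 transcript, at 35.7 CPM. Depleted replicates 1 and 3 held 39 and 53.1 CPM, and there the order differed, as depleted replicate 3 had the lower median. The order of the libraries depends on the scaling. Summed FPKM over the 39 genes were 1209, 1022 and 961.1 in depleted replicates 1, 2 and 3, with replicate 3 lowest. A relation between BCLAF1 level and median was not tested.

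Levels of different genes can be compared per exon length, in the deposited FPKM values, which divide by gene length and by the size of the library. In control cells TOP2A had the highest level of the 39, at 131.9 ± 4.48 FPKM (SD, n = 3). CDC25B followed at 100.4 ± 3.61 FPKM and MKI67 at 94.9 ± 6.29 FPKM, and their control libraries overlapped. TTK was lowest, at 6.85 ± 0.287 FPKM, next to CENPE at 6.9 ± 0.448 FPKM, which did not differ beyond their spread. The checkpoint genes were low as a group: BUB1B stood at 18.0 ± 0.459 FPKM, BUB1 at 13.4 ± 0.73 FPKM and MAD2L1 at 7.22 ± 0.791 FPKM. PRC1, at 84.5 ± 0.302 FPKM, was far above the other cytokinesis genes ANLN (41.6 ± 1.6 FPKM) and ECT2 (37.1 ± 1.17 FPKM). In depleted cells TOP2A remained highest at 95.9 ± 6.91 FPKM, and TTK had the lowest mean at 3.27 ± 1.24 FPKM. TTK did not differ beyond its spread from CENPE at 3.6 ± 0.295 FPKM, which was the lower of them in depleted replicate 1. FPKM are per total reads, so they carry no TMM scaling, and they put the depleted libraries lower against the controls than CPM do. Across the 39 genes the fold change had a Pearson correlation of 0.23 with log2 control FPKM (Spearman 0.24), a description over genes that share libraries.

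Fold changes in these libraries also went with exon length, over all genes and over the mitotic ones. Across the 39 genes the Pearson correlation of log2 fold change with log2 exon length was -0.36 (Spearman -0.44), and over 15775 tested genes it was -0.26 (Spearman -0.30), as descriptions across genes of the same libraries. Among the 13 shortest of the 39 (613 to 2928 bases of exon), 5 fell, with a median of -0.34. All tested genes of that length had a median of 0.28, and 7.0% of them fell. Among the 13 longest (4579 to 12807 bases), 11 fell with a median of -0.70, where 25.6% of all genes of that length fell with a median of -0.13. The middle 13 (3338 to 4547 bases) held 7 that fell (median -0.61), where all genes of that length had 15.9% and 0.02.

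A fit with each library's smooth trend over exon length and GC content removed called 26 of the 39 lower and none higher. The median was -0.51 against -0.01 for all genes, of which 17.2% were called lower and 16.1% higher. CKS2, the shortest of the 39 with 613 bases of exon, moved from -0.34 to -0.62 (adjusted p = 0.0133). CDC20 moved from -0.06 to -0.37 (adjusted p = 0.0281) and PTTG1 from -0.11 to -0.39 (adjusted p = 0.0339), so 2 of the 4 genes around the anaphase-promoting complex were called lower in this fit. CCNA2 passed too, at -0.40 (adjusted p = 0.0318). MKI67, the longest with 12807 bases, lost its call at -0.34 (adjusted p = 0.123). Genes that had fallen most were still called lower: BUB1 was at -1.28, ANLN at -1.28 and DLGAP5 at -1.19. CENPA, a short gene, moved from -1.05 to -1.31 (adjusted p = 0.00219).

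**Figure D4:**
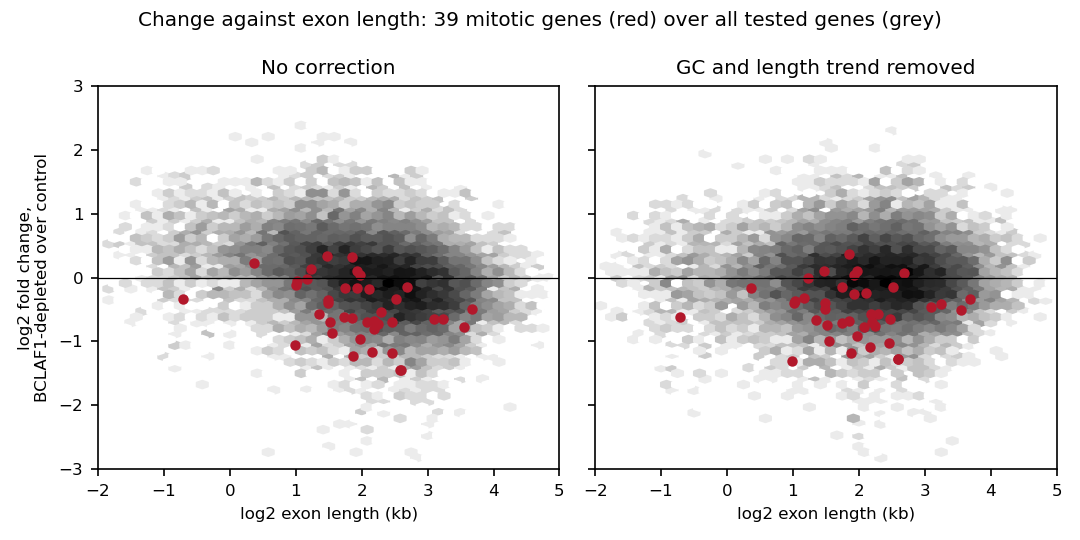
Log2 fold change (BCLAF1-depleted over control) against log2 exon length in kilobases, for the 39 mitotic genes (red) over all tested genes (grey, darker where more genes lie, log scale), without correction on the left and with the length and GC trend removed on the right. The grey cloud slopes down on the left and is flat on the right, and most red points lie below 0 in both panels.

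For 9 pairs of partner genes, the log2 ratio of their counts within a library was compared between groups, since such a ratio is free of library scaling. With 3 libraries against 3, an exact two-sided permutation test cannot go below p = 0.1, and adjusted over the 9 pairs not below 0.15. In 6 pairs the groups did not overlap, each with exact p = 0.1 and adjusted p = 0.15, so none passed the threshold. How often pairs of other genes lie apart was not counted, so 6 of 9 says nothing particular about these partners. The largest difference was in CENPA over its chaperone HJURP, with log2 ratios of -3.29, -3.18 and -3.42 in controls and -3.80, -4.24 and -5.41 in depleted cells, a difference of -1.19. AURKA over AURKB went from 0.03, 0.21 and 0.41 to -0.28, -1.14 and -0.49, a difference of -0.85. Per exon length AURKA was the lower of the pair in controls already, at 37.1 ± 4.73 FPKM against 66.1 ± 3.19 FPKM for AURKB (SD, n = 3).

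The subunit ratio NDC80 over NUF2 was at -1.26, -1.40 and -1.43 in controls and at -1.06, -0.68 and -0.90 in depleted cells, a difference of 0.48. CKS1B over CKS2 differed by 0.46 and CDC25B over CDC25C by 0.44. BUB1 over BUB1B differed by -0.28, from a mean of -0.48 ± 0.09 (SD, n = 3) to -0.75 ± 0.14, and both genes had fallen. The ratio of CCNB1 to CCNB2 overlapped between groups, with a difference of -0.19 (exact permutation p = 0.6). CENPE over CENPF (0.14, exact p = 0.5) and UBE2C over UBE2S (-0.09, exact p = 0.6) overlapped as well.

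**Figure D5:**
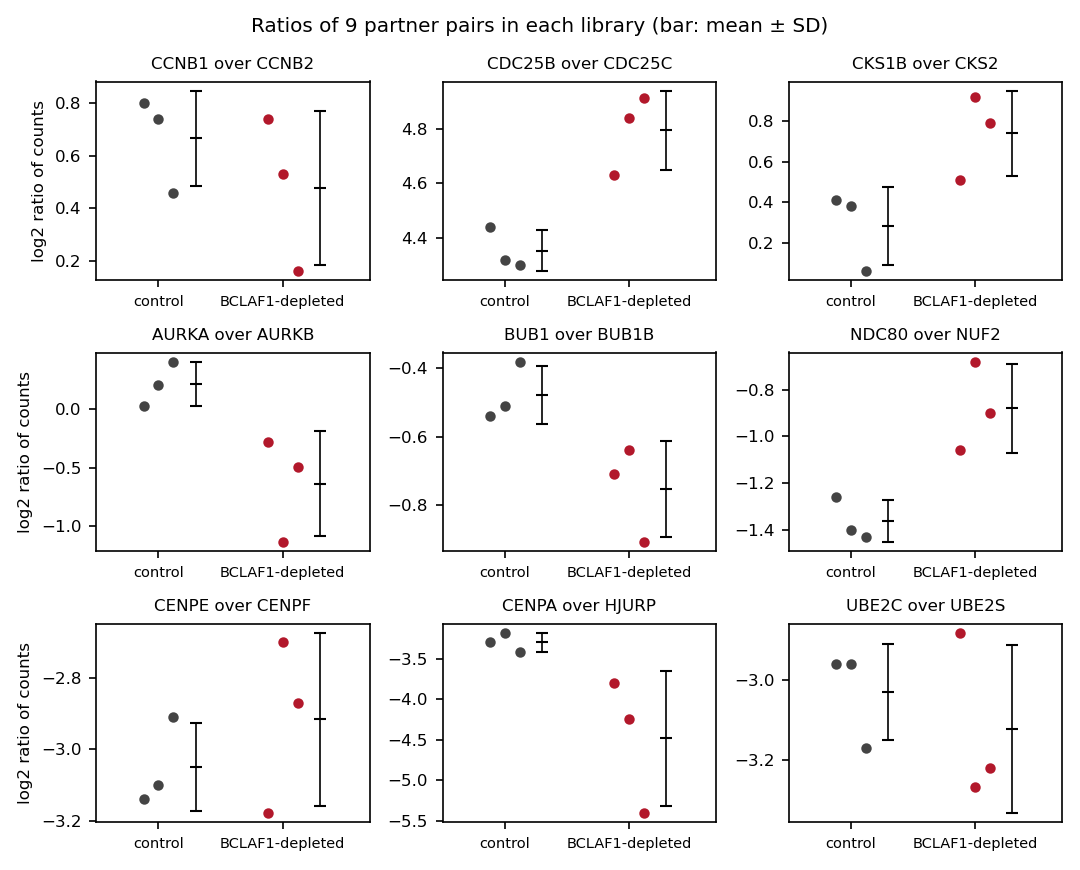
Log2 ratio of counts of 9 partner pairs in each of the 3 control (grey) and 3 BCLAF1-depleted (red) libraries, with the mean ± SD beside the points. The y axes differ between panels and do not start at 0. The groups are apart in 6 panels and overlap for CCNB1 over CCNB2, CENPE over CENPF and UBE2C over UBE2S.

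The other genes of mitosis were taken from 11 lists with 152 genes, of which 151 were tested. Of these 58 fell and 9 rose, and the median was -0.29. Over all tested genes 18.0% fell and 17.8% rose, with a median of 0.02, and each list's count is to be read against these shares. The mitotic kinesins had the largest share that fell, 9 of 12, and all 12 had every depleted library below every control. KIF14, a kinesin of cytokinesis, was at 45.5, 44.4 and 43.2 CPM against 23.3, 14.3 and 15.3 CPM (-1.33 ± 0.18, adjusted p = 0.000707). KIF20A, which brings passenger proteins to the central spindle, was at -1.05 ± 0.16 (adjusted p = 0.00142), and KIF11, the motor that pushes spindle poles apart, at -0.86 ± 0.14 (adjusted p = 0.00224). Of the cytokinesis proteins 5 of 11 fell and 1 rose. They included RACGAP1 (-0.60 ± 0.15, adjusted p = 0.0126), the partner that ECT2 binds at the central spindle, DIAPH3 (-0.77 ± 0.14) and MYH10 (-0.69 ± 0.14). RACGAP1 did not pass without control replicate 2 (adjusted p = 0.0547).

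Of the remaining checkpoint genes 2 of 10 fell, a share near the 18.0% of all tested genes: SPDL1 (-0.66 ± 0.19, adjusted p = 0.0234) and KNTC1 (-0.54 ± 0.13, adjusted p = 0.0109), both of which help bring dynein to kinetochores. SPDL1 lost the call without any 1 of the controls (adjusted p = 0.071, 0.065 and 0.0666), and KNTC1 without control replicate 1 (0.0598) or 2 (0.0565) and with the length and GC trend removed (-0.27, 0.0742). Of 24 kinetochore and inner centromere proteins 8 fell and 3 rose. CASC5, now named KNL1, is the scaffold on which BUB1 and BUB1B dock, and it fell from 30.7, 29.9 and 30.9 CPM to 14.6, 7.36 and 8.72 CPM (-1.57 ± 0.22, adjusted p = 0.000885). CENPB, a centromere DNA-binding protein, was higher at 0.80 ± 0.25 (adjusted p = 0.0318). Its libraries ran 325.0, 493.6 and 748.7 CPM against 296.7 to 307.4 CPM in controls, and it did not pass without any 1 of the controls (adjusted p = 0.093, 0.0935 and 0.0943) or without depleted replicate 2 (0.0746) or 3 (0.0757), with library totals (0.0517) or with the length and GC trend removed (0.0679).

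Of the passenger and shugoshin genes 3 of 5 fell: GSG2, the kinase haspin (-0.57 ± 0.14, adjusted p = 0.0104), CDCA8, or borealin (-0.56 ± 0.16, adjusted p = 0.0222), and SGOL2, which protects centromeric cohesion (-0.49 ± 0.14, adjusted p = 0.0239). GSG2 did not pass without control replicate 2 (adjusted p = 0.0626). CDCA8 passed only with depleted replicate 1 left out, of the 6 fits that each leave out a library (the other adjusted p-values ran from 0.0627 to 0.0765). SGOL2 did not pass without control replicate 1, 2 or 3 or depleted replicate 2 (adjusted p = 0.0774, 0.0565, 0.0983 and 0.0696), or with the length and GC trend removed (0.082). The anaphase-promoting complex and its regulators went both ways, with 5 of 18 lower and 3 higher (median 0.03). CDC23, a scaffold subunit, fell (-0.95 ± 0.17, adjusted p = 0.00325). The small subunits ANAPC15 (0.86 ± 0.22, adjusted p = 0.0137) and CDC26 (0.58 ± 0.15, adjusted p = 0.0138) rose. ANAPC15 missed the threshold without control replicate 1 (adjusted p = 0.0521) or 3 (0.055), and CDC26 without control replicate 1 (0.0692) or 2 (0.064), with library totals alone (0.33, 0.111) and with the length and GC trend removed (0.28, 0.104).

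Among genes of chromosome structure, of 12 cohesin genes 6 fell (median -0.46), and 4 did with the length and GC trend removed. RAD21, the cohesin subunit that separase cuts at anaphase, fell most of all 151 genes, from 269.0, 255.0 and 239.7 CPM to 108.6, 54.6 and 76.5 CPM (-1.67 ± 0.22, adjusted p = 0.000628). PDS5A (-0.89 ± 0.14) and STAG2 (-0.85 ± 0.17), which bind the cohesin ring, also fell. Of 8 condensin genes 5 fell (median -0.59; 4 with the trend removed), led by NCAPG2 (-1.17 ± 0.16, adjusted p = 0.000953), NCAPH (-0.96 ± 0.16) and NCAPD3 (-0.68 ± 0.15). Spindle pole and centrosome genes fell in 8 of 18 cases, with CEP192 at -1.04 ± 0.18, FAM83D at -1.03 ± 0.22 and ASPM at -0.94 ± 0.15.

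Of 13 genes of mitotic entry and exit 3 fell and 1 rose (median -0.19), shares not far from, or below, the 18.0% and 17.8% of all tested genes. Those that fell were the phosphatase genes CDC14A (-1.06 ± 0.24, from a control mean of 3.04 CPM) and CDC14B (-0.72 ± 0.21, adjusted p = 0.0225), and the F-box gene BTRC (-0.72 ± 0.12). CDC14B passed in 1 of the 6 fits that each leave out a library, the one without depleted replicate 1, and had adjusted p-values from 0.0572 to 0.0764 in the others. Of 20 tested genes that control transcription of mitotic genes, 4 fell and 1 rose (median -0.17), and the share that fell was near the 18.0% of all tested genes. Those that fell were LIN9, a subunit of the MYBL2 and DREAM complexes (-1.04 ± 0.22, adjusted p = 0.00653; named after its value was seen), and the retinoblastoma family genes RBL2, RB1 and RBL1, whose products hold cell cycle genes repressed in resting cells. RBL2, the pocket protein of DREAM, was at 33.2, 29.9 and 38.4 CPM against 17.0, 10.1 and 14.1 CPM (-1.30 ± 0.19, adjusted p = 0.00101), RB1 at -1.17 ± 0.26 (adjusted p = 0.00749) and RBL1 at -1.12 ± 0.18 (adjusted p = 0.00197). These lists, like the 39 genes, hold long and short genes. With the length and GC trend removed 54 of the 151 were called lower and 8 higher, where 17.2% and 16.1% of all tested genes were.

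Set beside the sequences, CHR matches were found on both sides of the threshold. Of the 19 genes that fell and have a window, 15 held a CHR match in at least 1 window, and of the 14 that did not pass, 9 did. The 2 groups of windows held CCAAT matches in 69.6% and 80.0%. The matches within 50 bases of the start were in 16 of the 23 windows of genes that fell and in 6 of the 20 windows of the others. This is a description in which genes with several starts count more than once. BUB1, which fell most after ANLN, held no TTTGAA on either strand, and neither did CCNB1, CENPE or CKAP2. NDC80 and NUF2, which did not pass, each held 1 match within 50 bases. Only these exact letters were searched, so an element with other letters would not be counted.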

How the data were processed

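Polyadenylated RNA of 3 control and 3 BCLAF1-depleted A549 libraries was sequenced. The authors deposited raw read counts per gene, whole numbers with 1 column per library, and FPKM values per gene. Bcl2fastq, TopHat2, edgeR and build GRCh38 are named per the submitters' processing notes. Their versions and roles, the counter, the gene annotation, how FPKM lengths were set and whether counting used strand were not given in the sources used here. Groups and replicate numbers come from the titles.

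Genes passed a filter of at least 10 counts in enough libraries and 15 in total (filterByExpr), which left 15907 of 29122. Counts were scaled by TMM and tested with edgeR 4.0.16 (R 4.3.3; glmQLFit, glmQLFTest, group only), with Benjamini-Hochberg adjustment over every tested gene and a threshold of 0.05. The common biological coefficient of variation was 15.3%. SE is the log2 fold change over the square root of F. CPM of 3 counts was 0.0683 to 0.0898 per library, and depth covers counting error only. Between replicates, counts differed by more than sampling noise in each pair of libraries of a group. Exon length and GC content came from GENCODE 29 on GRCh38, found for 99.2% of tested genes, and their trend was fitted per library with mgcv 1.9.3 as an offset. Pair ratios used counts with 0.5 added and an exact permutation test.

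Alternatives were DESeq2 1.42.0 and its size factors, upper-quartile factors, library totals, other filters, limma 3.58.1 (voom, and limma-trend on log2(FPKM + 1) and log2(FPKM + 0.1), a scale on which low genes change less), a replicate block, the length and GC offset, each library left out, and a threshold of 0.01. The fits were tested on simulated data. Promoter windows are RefSeq's on GRCh38.p14, matched by symbol.

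The genes named were all 39, BCLAF1, and from each of the 11 lists up to 3 genes past the threshold with the largest change and a mean of at least 1 CPM. A gene that this rule names is not reported here. The 39 genes, lists, pairs and motifs were chosen with earlier results of these data known. Cell markers were KRT8, KRT18, KRT19, EPCAM and CDH1 (epithelial), alveolar, A549 enzyme, A549-deleted, leukocyte, endothelial and fibroblast lists. The A549 enzyme list summed to between 7600 and 10000 CPM, the epithelial list to between 30200 and 39100 CPM, and the A549-deleted list, which is MTAP in nearly all its counts, to between 3.82 and 7.89 CPM.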

Additional observations from a re-analysis of the deposited data

How the results depend on the processing

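Of the 23 genes that fell, 17 kept the call in all 20 alternatives; CCNB1, CCNB2, TPX2, PRC1, FOXM1 and MKI67 did not, and the cause was not tested. The count of the 39 that fell was 22 to 26 with another scaling, filter or count test and 17 to 26 with a library left out. None rose except 2 without BCLAF1-depleted replicate 1 (range 0 to 2). The median ran from -0.67 to -0.50 with a library left out. It was -0.77 with library totals and -0.78, -0.88 and -0.78 from FPKM with a pseudocount of 1, of 0.1, and of 1 with no filter; these carry no TMM scaling, and 31, 30 and 23 of the 39 fell. Replicates share only a number: the deviations of same-numbered libraries correlated at 0.036, 0.0466 and 0.119. With the replicate block, 22 fell (median -0.59) and MKI67 lost its call. Of the other mitotic genes, 31 to 75 fell and 0 to 19 rose with a library left out, 30 and 0 passed at 0.01, and those that rose were 1 with library totals and 1, 1 and 0 from FPKM. Over all genes, 1549 to 4195 fell and 1383 to 3741 rose with a library left out, and 1287 and 1149 passed at 0.01. Of all genes 1283 rose with library totals, 4453 fell and 1131 rose from FPKM with a pseudocount of 1, 4381 and 1126 with 0.1, and 573 rose with no filter. None of the 23 changed sign in any alternative. Among the 16 not past the threshold, AURKB turned to 0.02 with upper-quartile factors, 0.01 with at least 5 CPM, and to 0.01 without control replicate 1 and 0.05 without BCLAF1-depleted replicate 3 (-0.14 to 0.05 over the libraries left out). CDK1 turned to -0.18 with totals, -0.003 with no filter, -0.24, -0.25 and -0.24 from FPKM, and -0.01 without BCLAF1-depleted replicate 2 (-0.01 to 0.09 over the libraries left out). CKS1B turned to -0.09 with totals, -0.17 from each FPKM fit, -0.004 with the length and GC correction and -0.01 with that and the replicate block. HJURP turned to -0.15 with totals, -0.21 from each FPKM fit and -0.10 without BCLAF1-depleted replicate 3 (-0.10 to 0.20). UBE2C turned to -0.01 with totals, -0.07 from each FPKM fit, -0.16 with the correction and -0.15 with correction and block, and TOP2A to 0.08 and 0.05 with these. The 9 pair ratios kept their direction with each library left out. FPKM divide a gene by the same length in every library, so pair ratios in FPKM could not change direction and are no separate check.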
